A study of Mus musculus with 10 samples.

Results

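The 10 enzymes described here build glycolipids and the stem cell glycan SSEA-1, and their transcripts were measured in 10 mouse embryonic stem (ES) cell lines. The genes are Ugcg, B4galt6, B3gnt5, B4galt1, Fut9, Fut4, B3galt5, A4galt, St3gal5 and B4galnt1, chosen by name for their place in lacto-series, globo-series and ganglioside synthesis. The choice was made with earlier results of these data known. These enzymes are 10 of the 20206 genes in the expression table, and each has 1 entry there. Glycolipid synthesis starts when ceramide receives glucose and then galactose, which gives lactosylceramide, the common precursor of the later branches. The sugar added next decides the branch: N-acetylglucosamine opens the lacto and neolacto series, a further galactose the globo series, and sialic acid the ganglioside series. SSEA-1, the Lewis x structure, is a fucosylated end of N-acetyllactosamine chains on lipids and proteins, and is a classical surface marker of mouse ES cells.

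The study asks whether the diet of the mother before implantation leaves differences in ES cell lines derived from her blastocysts. Females were C57Bl/6, 7 to 9 weeks old and mated with males of the same strain. From the morning after mating to embryonic day 3.5 they ate a low protein diet (LPD, 9% casein) or a normal protein diet (NPD, 18% casein) with the same energy content. Lines were derived on feeder fibroblasts, and RNA was taken from cells grown in medium free of fibroblasts. All 10 lines are labelled C57Bl/6, wild-type, male ES cells. The LPD group holds lines 1, 4, 6, 20 and 40, the NPD group lines 8, 15, 21, 36 and 51, with 1 RNA sequencing library a line, and values below are listed in that order. Lines are the replicates, with n = 5 a diet throughout.

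Values are gene-level read counts estimated by the authors and normalized between the lines, called normalized signal here, and they are not divided by gene length. Depth, as read equivalents recovered from the spacing of the low values, was 21859771, 5854705, 12333161, 24222728 and 11239652 in the LPD lines and 21268738, 22194039, 23179992, 22603991 and 20347305 in the NPD lines. LPD lines 4, 6 and 40 were therefore sequenced less deeply than every NPD line. A single read equals 2.88 units of normalized signal in LPD line 4 and between 0.725 and 1.58 in the other lines. The ES cell label was checked against its markers: Pou5f1 lay between 18250 and 30420, Nanog between 5141 and 11571, and Sox2 between 7481 and 10969. Summed over 10 pluripotency genes the signal was lowest in NPD line 8 (97173.5) and highest in LPD line 40 (132740), with Dppa5a the most abundant (mean 28666). A pair of lines goes against the male label: the Y-linked gene Ddx3y was 174 in LPD line 4 and 7.70 in NPD line 15, against 1110 to 1493 in the other lines. The summed signal of 4 Y-linked genes, 3706 to 4305 in the other lines, was 701 and 152 in this pair, low but not absent. The diet tests of the enzymes and the correlations named are given with and without these lines.

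Of the 10 enzymes, 9 had a mean normalized signal of at least 10 and were tested, along with 14354 genes in all. Compared per kilobase of the longest annotated transcript, the mean level over the 10 lines was highest for B4galt6 (392 ± 42.9 per kb, SD). B4galt1 (216 ± 20.3 per kb), B3gnt5 (211 ± 72.6 per kb) and Ugcg (202 ± 15.8 per kb) came next on this scale. On the same scale A4galt stood at 144 ± 45.8, B4galnt1 at 99.4 ± 26.6 and St3gal5 at 79.4 ± 18.3. The fucosyltransferases were lower per kb, Fut9 at 24.4 ± 7.98 and Fut4 at 12.3 ± 5.91, and B3galt5 was the lowest at 0.739 ± 0.482. Several neighbours in this order of levels per kb were not separated: B4galt1 exceeded B3gnt5 in 6 of 10 lines, B3gnt5 exceeded Ugcg in 5, and B4galnt1 exceeded St3gal5 in 6. B4galt6 was above B4galt1 and St3gal5 above Fut9 in all 10 lines per kb, whereas Ugcg over A4galt, A4galt over B4galnt1 and Fut9 over Fut4 each held in 9. The levels depend on the length taken. Per kb of the median length of the protein-coding transcripts, B4galt1 stood at 318, B3gnt5 at 244 and Ugcg at 202, St3gal5 at 133 and Fut9 at 40.3. On that scale B4galt1 exceeded B3gnt5 in 8 lines and B3gnt5 exceeded Ugcg in 6, and St3gal5 and B4galnt1 exchange their ranks. B4galt6 exceeded B4galt1 in 9 lines there, and Ugcg exceeded A4galt in 8.

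The spread over lines differed between the genes. The highest line was 1.27 times the lowest for Ugcg, 1.37 times for B4galt1 and 1.49 times for B4galt6. The other tested enzymes had higher ratios, 1.98 for B4galnt1, 2.24 for St3gal5, 2.66 for B3gnt5, 2.79 for A4galt, 2.90 for Fut9 and 4.56 for Fut4. No test of the spread was made. NPD line 15, a line low in Y-linked signal, held the highest value of 4 tested enzymes (Ugcg, Fut9, A4galt and St3gal5) and the lowest of B3gnt5. LPD line 20 held the lowest value of 5 (Ugcg, B4galt1, Fut9, A4galt and St3gal5) and the highest of Fut4. LPD line 40, NPD line 8 and NPD line 51 were at neither end for any tested enzyme.

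**Figure D1:**
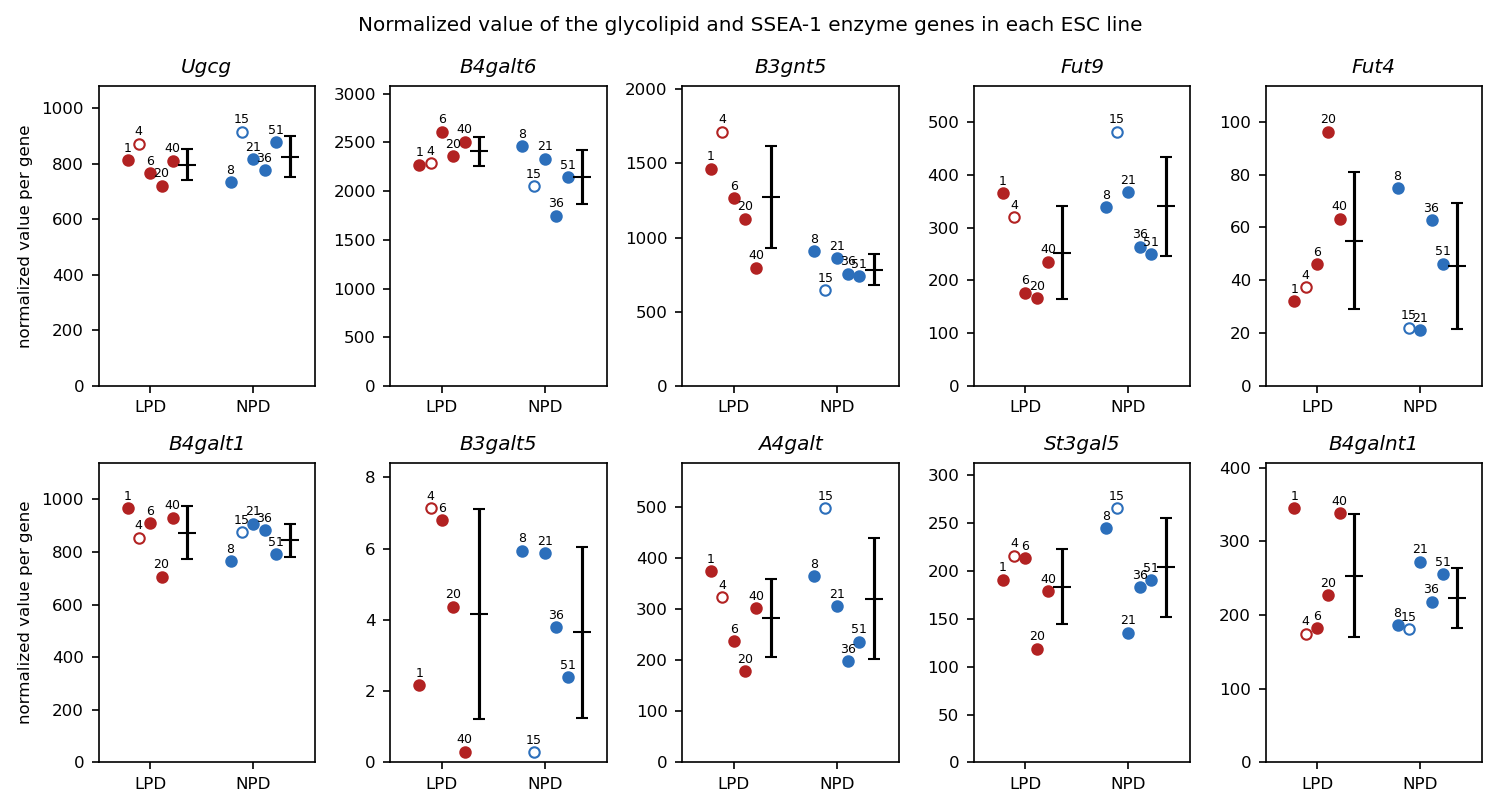
Normalized signal of the enzymes in each line, LPD beside NPD, 1 panel a gene. Points are lines, open circles are LPD line 4 and NPD line 15, bars are the group mean and SD. For B3gnt5, 4 LPD lines lie above every NPD line, and for the other tested enzymes the groups interleave more.

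Between the diets, the limma fit called no gene of the 14354 tested at an adjusted p under 0.1 (0 percent), and the smallest adjusted p was 0.207. At an unadjusted p under 0.05 limma counted 721 genes (5.02 percent), and the exact Mann-Whitney test counted 516 genes at that level and 0 after adjustment. The smallest p that the Mann-Whitney test can give with 5 lines a diet is 0.00794. Its 0 after adjustment was therefore close to fixed by the number of lines and adds nothing to the limma result. Among the 721, 408 (2.84 percent of those tested) had the higher mean in LPD and 313 (2.18 percent) the lower. That split moves with the scaling: with every line brought to the same total, 295 were higher and 439 lower, so the share higher went from 56.6 to 40.2 percent. One of the 9 tested enzymes, B3gnt5, reached an unadjusted p under 0.05 (11.1 percent against the 5.02 percent over all genes), on the higher side. The count was also 1 without LPD line 4 and NPD line 15. The study had already selected a transcript of B3gnt5 as higher in LPD on these same lines. The list was also chosen with earlier results known, so this count and its direction are not independent evidence about the list. Of the 9, 5 had a positive log2 fold change (LPD over NPD) and 4 a negative one, with a median of 0.04 against 0.0020 over all genes, and the 5 to 4 division was the same after rescaling to equal totals and after quantile normalization. Over all genes, 7247 log2 fold changes were positive and 7107 negative. No tested enzyme separated the diets in every line, whereas 146 genes (1.02 percent) did. In bulk samples such as these, fewer cells of a type and less RNA per cell cannot be told apart.

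The pathway begins with Ugcg, the glucosylceramide synthase (GRCm38 chromosome 4, 59189257 to 59222833). Its normalized signal was 812, 872, 766, 721 and 810 in the LPD lines and 733, 915, 817, 777 and 878 in the NPD lines. Both groups span nearly the same range, with LPD line 20 the lowest and NPD line 15 the highest. The means were 796 ± 56.4 and 824 ± 73.7 (SD, n = 5), a log2 fold change of -0.05 (SE 0.09, 95% interval -0.25 to 0.15, exact permutation p = 0.492, limma adjusted p = 0.994). Leaving out single lines gave -0.09 to -0.01, and omitting LPD line 4 and NPD line 15 gave -0.04.

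B4galt6 makes lactosylceramide (chromosome 18, 20684599 to 20746404). It measured 2271, 2289, 2610, 2361 and 2510 in the LPD lines against 2462, 2048, 2333, 1748 and 2147 in the NPD lines. LPD lines 6 and 40 lie above all NPD lines, NPD line 36 is the lowest, and the groups overlap in between. With means of 2408 ± 147 and 2148 ± 275 (n = 5), the log2 fold change was 0.17 (SE 0.10, 95% interval -0.04 to 0.38), which did not pass (exact permutation p = 0.0952, limma adjusted p = 0.994). Without LPD line 4 and NPD line 15 it was 0.18. Single lines move B4galt6 both ways: it was 0.22 without NPD line 8, where it passes an unadjusted p under 0.05, and 0.10 without NPD line 36, where it does not. B4galt5, the other lactosylceramide synthase, was set beside it after its values were seen. The log2 ratio of B4galt6 to B4galt5 per kb was 0.63 ± 0.14 in LPD and 0.46 ± 0.05 in NPD, and 4 LPD lines had a higher ratio than every NPD line. The sign of that log2 ratio turns with the length: per kb of the median coding length, chosen after seeing the data, it was -0.23 in LPD and -0.40 in NPD.

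B3gnt5 adds the N-acetylglucosamine that opens the lacto and neolacto series (chromosome 16, 19760208 to 19772753). A transcript of B3gnt5 is among those the study selected on these same lines, so its test here is not independent evidence. Its normalized signal was 1465, 1714, 1265, 1128 and 797 in the LPD lines and 910, 644, 861, 756 and 742 in the NPD lines. LPD lines 1, 4, 6 and 20 lie above all NPD lines, LPD line 40 lies inside the NPD range, and NPD line 15 is the lowest. Over the whole table, 444 genes (3.09 percent) had at least 4 LPD lines above every NPD line, and B3gnt5 was the 1 tested enzyme among them. The means were 1274 ± 346 in LPD and 783 ± 105 in NPD (SD, n = 5), 1.59-fold by the means of the log2 signal. The log2 fold change was 0.67 (SE 0.18, 95% interval 0.28 to 1.05), with an exact permutation p of 0.0238 where the smallest possible is 0.00794. By limma B3gnt5 ranked 67 of 14354 by p and 270 by log2 fold change, and it did not pass the adjustment (adjusted p = 0.551).

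The B3gnt5 call turns on LPD line 40. Without that line the log2 fold change was 0.82 with a limma adjusted p of 0.0532, under the threshold, in a fit that called 40 genes in all. Across the alternatives tried for B3gnt5 the adjusted p ran from 0.0532 to 1.00 and the log2 fold change from 0.48 to 0.82. The lowest value, 0.48 (SE 0.17, adjusted p = 0.998), came from leaving out LPD line 4 and NPD line 15, which hold its highest and lowest signal. Without LPD lines 4 and 40 and NPD line 15, a choice made after seeing the data, B3gnt5 gave 0.65 with an adjusted p of 0.343. With sequencing depth as a covariate it was 0.58. The part of depth in the B3gnt5 difference was not tested beyond that fit.

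The 5 tested genes whose log2 signal was most like that of B3gnt5 over the 10 lines were Chac1 (Pearson r = 0.98), Herpud1 (0.96), Zfp35 (0.94), Ccn1 (0.94) and Egr3 (0.94). These r values describe a ranking over all genes and carry no test. The ranking left the diet difference in, so line patterns and fold changes like those of B3gnt5 follow from the choice of these genes. Chac1, which degrades glutathione, had 873, 923, 464, 521 and 311 in the LPD lines and 372, 192, 335, 263 and 218 in the NPD lines. Like B3gnt5 it was above all NPD lines in LPD lines 1, 4, 6 and 20 and inside the NPD range in LPD line 40. Herpud1, a protein of endoplasmic reticulum protein degradation that the study also selected, had 541, 549, 416, 393 and 336 against 278, 231, 302, 284 and 277. Its groups do not overlap. The early response gene Egr3 ran from 4.54 in LPD line 40 to 527 in LPD line 4, and the matricellular gene Ccn1 from 991 in NPD line 21 to 10567 in LPD line 1. With the diet means removed r was 0.94 for Chac1, 0.92 for Herpud1, 0.87 for Zfp35, 0.86 for Ccn1 and 0.87 for Egr3, and without LPD line 4 and NPD line 15 it was 0.95, 0.93, 0.89, 0.94 and 0.93. The log2 fold changes were 1.09 for Chac1, 0.68 for Herpud1, 0.28 for Zfp35, 2.01 for Ccn1 and 3.36 for Egr3, none past the adjustment by limma (adjusted p between 0.422 and 0.866).

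B4galt1 adds galactose to N-acetylglucosamine and so completes the N-acetyllactosamine unit that fucose is added to (chromosome 4, 40804602 to 40854005). It showed 966, 854, 908, 706 and 930 in the LPD lines and 765, 876, 908, 882 and 792 in the NPD lines. LPD line 20 is the lowest of the 10, and the NPD lines fall within the LPD range. The log2 fold change was 0.04 (SE 0.10, means 873 ± 102 and 845 ± 62.2, n = 5, exact permutation p = 0.675), 0.0035 to 0.12 with single lines left out and 0.06 without LPD line 4 and NPD line 15.

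Fut9 and Fut4 are the fucosyltransferases that can form Lewis x, the SSEA-1 structure. Fut9 (chromosome 4, 25609332 to 25800244) had 365, 319, 177, 166 and 235 in the LPD lines and 338, 482, 367, 264 and 250 in the NPD lines. LPD lines 6, 20 and 40 are below all NPD lines, while LPD lines 1 and 4 lie within the NPD range. Its means were 253 ± 87.5 and 340 ± 93.1 (n = 5), with a log2 fold change of -0.46 (SE 0.24, 95% interval -0.99 to 0.07, exact permutation p = 0.127, limma adjusted p = 0.994). Omitting LPD line 4 and NPD line 15 gave -0.42. With LPD line 1 left out Fut9 was -0.61 and counted among the genes at an unadjusted p under 0.05. Leaving out LPD line 20 gave -0.32, as did NPD line 15, and array weights gave -0.27, and it did not count there.

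Fut4 (chromosome 9, 14748320 to 14752393) had 32.1, 37.3, 46.0, 96.2 and 63.3 in the LPD lines and 74.9, 22.0, 21.1, 62.6 and 46.2 in the NPD lines. LPD line 20 is the highest, NPD lines 15 and 21 are the lowest, and the groups overlap widely. These are small signals, equal to 13.0 reads in LPD line 4 and 127 in LPD line 20, and counting error alone is larger here than for the other tested enzymes. The means were 55.0 ± 25.9 and 45.4 ± 24.0 (n = 5), a log2 fold change of 0.34 (SE 0.41, exact permutation p = 0.468). It ran from 0.11 without LPD line 20 to 0.56 without NPD line 8, was 0.24 without LPD line 4 and NPD line 15, and as a difference of medians it turned sign, to -0.0072. Per kb the log2 ratio of Fut9 to Fut4 ran from -0.78 in LPD line 20, where Fut4 was the higher, to 2.88 in NPD line 15. Its group means were 0.67 ± 1.08 and 1.48 ± 1.14. By median coding length the Fut9 to Fut4 ratio shifts up by 0.72 in every line, to -0.063 in LPD line 20 and to means of 1.39 and 2.20.

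B3galt5, a galactosyltransferase of the lacto and globo chains (chromosome 16, 96235801 to 96319859), was close to 0 in every line. Its normalized signal was 2.16, 7.13, 6.80, 4.37 and 0.305 in the LPD lines and 5.95, 0.293, 5.87, 3.79 and 2.40 in the NPD lines. That equals at most 7.79 reads in any line, and with a mean of 3.91 the gene was not tested.

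A4galt opens the globo series as the synthase of globotriaosylceramide (chromosome 15, 83226722 to 83251774). The LPD lines had 375, 324, 237, 179 and 302 and the NPD lines 365, 498, 306, 199 and 237. NPD line 15 is the highest, LPD line 20 is the lowest, and the groups interleave. The log2 fold change was -0.15 (SE 0.26, means 283 ± 76.7 and 321 ± 118, n = 5, exact permutation p = 0.627), and -0.03 without LPD line 4 and NPD line 15. With depth as a covariate A4galt was at -0.28. Its sign turns when LPD line 20 or NPD line 15 alone is left out, to 0.0033 and 0.026.

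The ganglioside branch starts with St3gal5, the synthase of GM3 (chromosome 6, 72097592 to 72154571). Signals were 191, 216, 213, 119 and 179 in the LPD lines and 245, 265, 135, 183 and 190 in the NPD lines. LPD line 20 is the lowest and NPD lines 8 and 15 are the highest, with the rest intermixed. The log2 fold change was -0.14 (SE 0.22, means 184 ± 39.4 and 204 ± 51.9, n = 5, exact permutation p = 0.540), and -0.10 without LPD line 4 and NPD line 15. Depth as a covariate takes St3gal5 to -0.36, and its sign turns to 0.0060 without LPD line 20.

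B4galnt1 carries GM3 on to GM2 (chromosome 10, 127165225 to 127172330). It gave 345, 175, 183, 227 and 338 in the LPD lines and 187, 181, 272, 218 and 255 in the NPD lines. LPD lines 1 and 40 stand above every NPD line and LPD line 4 below, so the LPD group encloses the NPD group. With means of 254 ± 83.0 and 223 ± 40.7 (n = 5) the log2 fold change was 0.14 (SE 0.22, exact permutation p = 0.540). Leaving out LPD line 1 gave 0.018, LPD line 40 gave 0.025 and LPD line 4 gave 0.26. The value was 0.19 without LPD line 4 and NPD line 15 and 0.34 with depth as a covariate. In that same fit Ugcg was at -0.12, B4galt6 at 0.16, B4galt1 at 0.011, Fut9 at -0.56 and Fut4 at 0.51, and B3gnt5 was the 1 tested enzyme at an unadjusted p under 0.05. Exons of B4galnt1 overlap those of Slc26a10 on the opposite strand. Slc26a10 had a normalized signal of 54.4 to 121, and whether the libraries kept the strand is not given in the sources used here, so part of either value could be reads of the other gene.

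Ratios of B3gnt5 to the other branch-opening enzymes and to Ugcg, upstream of the branches, were chosen after values were seen, and no test was made on them. The log2 ratio of B3gnt5 to A4galt per kb averaged 0.95 ± 0.50 in LPD and 0.13 ± 0.59 in NPD, with 4 LPD lines above every NPD line. For B3gnt5 over St3gal5 per kb the log2 ratio was 1.78 ± 0.43 against 0.97 ± 0.49, with 3 LPD lines above. B3gnt5 over Ugcg per kb was 0.35 ± 0.39 against -0.36 ± 0.31, again with 4 lines above. St3gal5 over A4galt, which leaves B3gnt5 out, had log2 ratios per kb of -0.83 ± 0.30 and -0.84 ± 0.43. The median coding length shifts each ratio by the same amount in every line, -0.53 for B3gnt5 over St3gal5, 0.12 for B3gnt5 over A4galt, 0.21 for B3gnt5 over Ugcg and 0.66 for St3gal5 over A4galt, and leaves the differences between diets as they are.

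Across the 10 lines, 36 pairs of tested enzymes were correlated on the log2 scale, with p-values from permutation tests and adjusted over the 36. Pearson r was positive in 17 pairs and negative in 19. In all, 5 pairs had an unadjusted permutation p under 0.05 and 0 an adjusted p under 0.05. The closest pair was Fut9 and A4galt, with r = 0.86 (permutation p = 0.00157, adjusted p = 0.0565) and rho = 0.82 (permutation p = 0.00551, adjusted p = 0.198). Both genes were lowest in LPD line 20 and highest in NPD line 15. Without those lines, the farthest from the median, r was 0.68, and without LPD line 4 and NPD line 15 it was 0.78 (permutation p = 0.0292). With the diet means removed it was 0.90 (permutation p = 7.0e-04, adjusted p = 0.0252), and with single lines left out it lay between 0.79 and 0.92. Here and below, the permutations with diet means removed shuffled lines over both diets and made no allowance for the removed means. Those p-values can therefore be too small.

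Of the other pairs at an unadjusted permutation p under 0.05, 3 hold Fut4, and none of the 4 keeps an unadjusted p under 0.05 without LPD line 4 and NPD line 15. The r of Fut4 with Ugcg was -0.73 (permutation p = 0.0171, adjusted p = 0.235) and rho -0.73 (permutation p = 0.0203, adjusted p = 0.235). With Fut9 its r was -0.72 (permutation p = 0.0196, adjusted p = 0.235) and its rho -0.72 (permutation p = 0.0226, adjusted p = 0.235). Without LPD line 20 and NPD line 15 these r values were -0.47 and -0.42. Those lines are the farthest from the median of Ugcg and of Fut9, so leaving them out narrows the range. With single lines left out the r values lay between -0.83 and -0.63 and between -0.86 and -0.60. Without LPD line 4 and NPD line 15 they were -0.62 (permutation p = 0.103) and -0.59 (permutation p = 0.123). Fut4 and A4galt had r = -0.63 (permutation p = 0.0494, adjusted p = 0.355) and rho = -0.58 (permutation p = 0.0876, adjusted p = 0.402), and r was -0.58 without LPD line 20 and NPD line 21 and -0.45 without LPD line 4 and NPD line 15 (permutation p = 0.259). Fut4 and B4galt1 had r = -0.61 (permutation p = 0.0636, adjusted p = 0.381) and rho = -0.48 (permutation p = 0.166, adjusted p = 0.492), with r = -0.35 without LPD line 20 and NPD line 21, -0.67 with diet means removed (permutation p = 0.0291, adjusted p = 0.262) and -0.66 without LPD line 4 and NPD line 15 (permutation p = 0.0733). With B4galt6, B3gnt5, St3gal5 and B4galnt1 the r of Fut4 was 0.14, 0.04, -0.24 and -0.04, and -0.02, -0.13, 0.07 and -0.40 without LPD line 4 and NPD line 15. A4galt and St3gal5 had r = 0.65 (permutation p = 0.0416, adjusted p = 0.355) and rho = 0.71 (permutation p = 0.0261, adjusted p = 0.235). This r was 0.16 without LPD line 20 and NPD line 15, the farthest from the median of A4galt, which also narrows the range. With single lines left out it lay between 0.47 and 0.77. Without LPD line 4 and NPD line 15 it was 0.47 (permutation p = 0.246). B3gnt5 had r between -0.21 and 0.42 with the other 8 tested enzymes, and between -0.35 and 0.43 without LPD line 4 and NPD line 15.

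**Figure D2:**
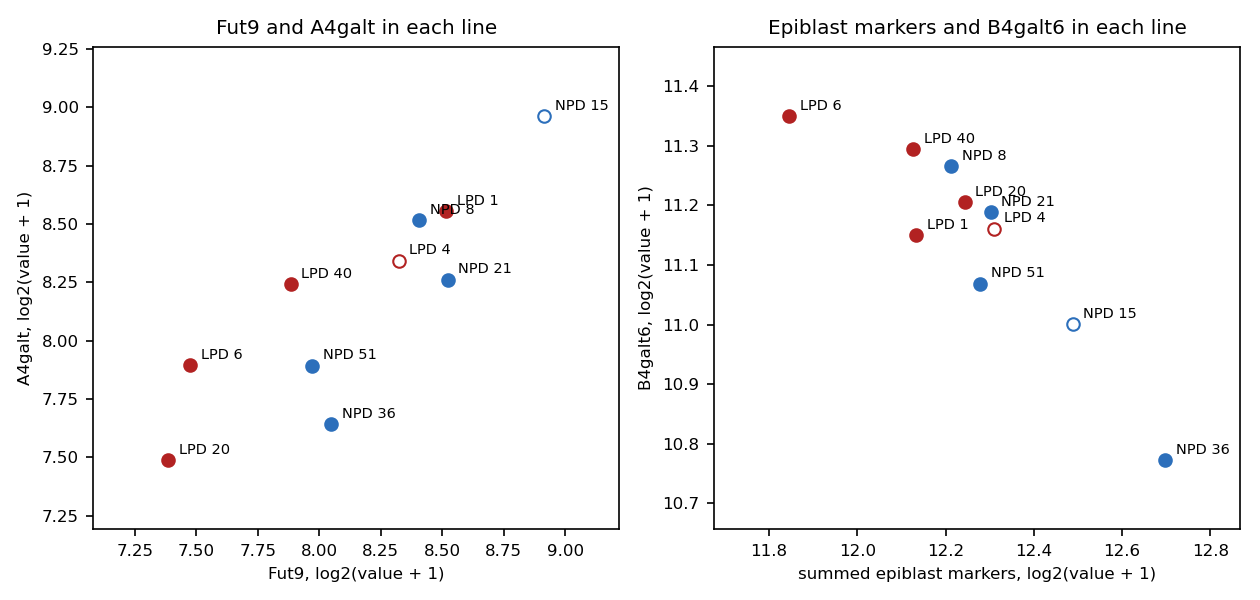
Log2 normalized signal of A4galt against Fut9, and of B4galt6 against the summed formative and primed epiblast markers, a point a line, open circles for LPD line 4 and NPD line 15. Fut9 and A4galt had r = 0.86 (permutation test, adjusted p = 0.0565, not under 0.05). B4galt6 is lowest in NPD line 36, where the summed formative and primed epiblast markers are highest (r = -0.91).

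Markers of 4 other cell types, and the pluripotency markers, were summed in each line and set against the 9 tested enzymes, 45 relations chosen after seeing the data, of which 36 concern markers of other cell types. The most abundant genes weigh most in a sum, so a sum need not follow the number of cells of that type. Formative and primed epiblast markers summed to 4493, 5074, 3681, 4847 and 4470 in the LPD lines and 4746, 5746, 5049, 6642 and 4969 in the NPD lines, with Dnmt3b the most abundant (mean 2886). The sum was highest in NPD line 36 and lowest in LPD line 6, the lines with the lowest and the highest B4galt6. B4galt6 had r = -0.91 with this sum (permutation p = 3.4e-04, adjusted p = 0.0153) and rho = -0.82 (permutation p = 0.00624, adjusted p = 0.140). Without LPD line 6 and NPD line 36 r was -0.76, with diet means removed -0.87 (permutation p = 0.00159), and without LPD line 4 and NPD line 15 -0.91 (permutation p = 0.00335). It was the 1 relation of the 45 at an adjusted p under 0.05, and 5 were at an unadjusted permutation p under 0.05. All 7 tested genes of the list had a negative log2 fold change (median -0.31), as did 7107 of the 14354 genes tested. Of the 7, 1 was at an unadjusted p under 0.05 by limma (5.02 percent over all genes). The 7 were also negative after rescaling and quantile normalization. Without LPD line 4 and NPD line 15, 6 of 7 were negative and 0 were at an unadjusted p under 0.05 by limma. Dnmt3b weighs most in this sum, against means of 13.4 for Fgf5 and 7.61 for T, the lowest of the list. Whether such cells were present, and their part in the B4galt6 values, was not tested.

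Fibroblast markers summed to 407, 687, 3369, 410 and 352 in the LPD lines and 2124, 5729, 437, 1117 and 489 in the NPD lines. Col1a1 was the most abundant (mean 724), and Postn, Lum and Dcn were at 0 in at least 1 line. Of the 8 markers 6 were tested, 5 with a negative log2 fold change (6 after rescaling to equal totals), with a median of -0.97. Lum, among these 5, was tested only through NPD line 15, at 111 there and at most 1.39 in any other line. Its sign therefore carries no information on the diets. Without LPD line 4 and NPD line 15 Lum was not tested, and 3 of the 5 tested markers were negative. Their median was -0.09, which is over a different set of genes than the -0.97. St3gal5 had r = 0.73 with the sum (permutation p = 0.0178, adjusted p = 0.267) and rho = 0.72 (permutation p = 0.0232, adjusted p = 0.261), and r = 0.63 without LPD line 6 and NPD line 15. Without LPD line 4 and NPD line 15 it was 0.65 (permutation p = 0.0731). B4galnt1 had r = -0.75 (permutation p = 0.0142, adjusted p = 0.267) and rho = -0.83 (permutation p = 0.00481, adjusted p = 0.140), and r = -0.71 without LPD line 6 and NPD line 15. Leaving out LPD line 4 and NPD line 15 gave -0.85 (permutation p = 0.00945). What fibroblast RNA adds to either enzyme was not tested.

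Primitive endoderm markers summed to 7008, 3863, 741, 2927 and 5267 in the LPD lines and 1552, 502, 3478, 7566 and 3790 in the NPD lines. Cubn was the most abundant (mean 1196) and Foxa2 was at 0 in NPD line 15. All 8 were tested with a positive log2 fold change (7 after rescaling to equal totals) and a median of 0.44, where 7247 of the 14354 genes tested were positive. Without LPD line 4 and NPD line 15, 3 of the 8 were positive and 5 negative, with a median of -0.14. B4galnt1 had r = 0.66 with this sum (permutation p = 0.0380, adjusted p = 0.427) and rho = 0.52 (permutation p = 0.134, adjusted p = 0.718), and r = 0.54 without LPD line 6 and NPD line 15, and 0.73 without LPD line 4 and NPD line 15 (permutation p = 0.0356). Trophectoderm markers summed to 4626, 4929, 10414, 3350 and 3664 in the LPD lines and 6382, 6357, 3883, 3860 and 3135 in the NPD lines, with Tfap2c the most abundant (mean 2500). Of these 8 genes 7 were tested, 5 of them with a positive log2 fold change, and the median was 0.21. St3gal5 had r = 0.64 with the trophectoderm sum (permutation p = 0.0496, adjusted p = 0.447) and rho = 0.76 (permutation p = 0.0140, adjusted p = 0.209), and r = 0.73 without LPD line 6 and NPD line 8, and 0.60 without LPD line 4 and NPD line 15 (permutation p = 0.114). Tfap2c weighs most in the trophectoderm sum, against means of 26.3 for Cdx2 and 3.55 for Elf5, the lowest of that list. Whether primitive endoderm or trophectoderm cells were present, and their part in these values, was not tested. Of the pluripotency markers 4 of 10 had a positive log2 fold change and 6 a negative one (median -0.02, 3 positive after rescaling and 2 after quantile normalization). With the 5 sums B3gnt5 had r between -0.49 and 0.25, and between -0.61 and 0.50 without LPD line 4 and NPD line 15, none at an unadjusted permutation p under 0.05 in either case.

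The rest of the glycolipid pathway was covered by 6 lists with 81 genes, of which 79 are in the table and 69 were tested. At an unadjusted p under 0.05 limma counted 6 of the 69 (8.70 percent against 5.02 percent over all genes), 4 with the higher mean in LPD and 2 with the lower, and none passed the adjustment. The median log2 fold change of the 69 was 0.02, against 0.0020 over all genes tested. Without LPD line 4 and NPD line 15 the count was also 6, of which 5 were higher, but of other genes in part: Sptlc1 and St3gal2 no longer counted, and Asah1 and Uap1 did. It was 2 without LPD line 6, 2 without NPD line 36, 4 without NPD lines 8, 15 or 21 singly, and 9 without LPD line 4. In the same order these fits counted 774, 549, 603 to 663 and 758 genes, of 14297 to 14373 tested. With all lines the pathway count was 4 after rescaling to equal totals, 4 without the trend, 4 with array weights and 2 by the exact Mann-Whitney test. Sptlc1 did not count after rescaling or without the trend, B3gnt2 in neither of these nor with array weights, and St3gal2 not with array weights. With depth as a covariate Degs1 and St3gal2 did not count. The Mann-Whitney test counted Degs1 and Fut10, and Fut10 counted in every setting that fitted it. Each of the other counted genes was lost with at least 1 single line left out. Hexa was lost without LPD line 40, NPD line 36 or NPD line 51. Degs1 was lost without LPD lines 6 or 20 or NPD lines 21, 36 or 51, each left out singly.

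**Figure D3:**
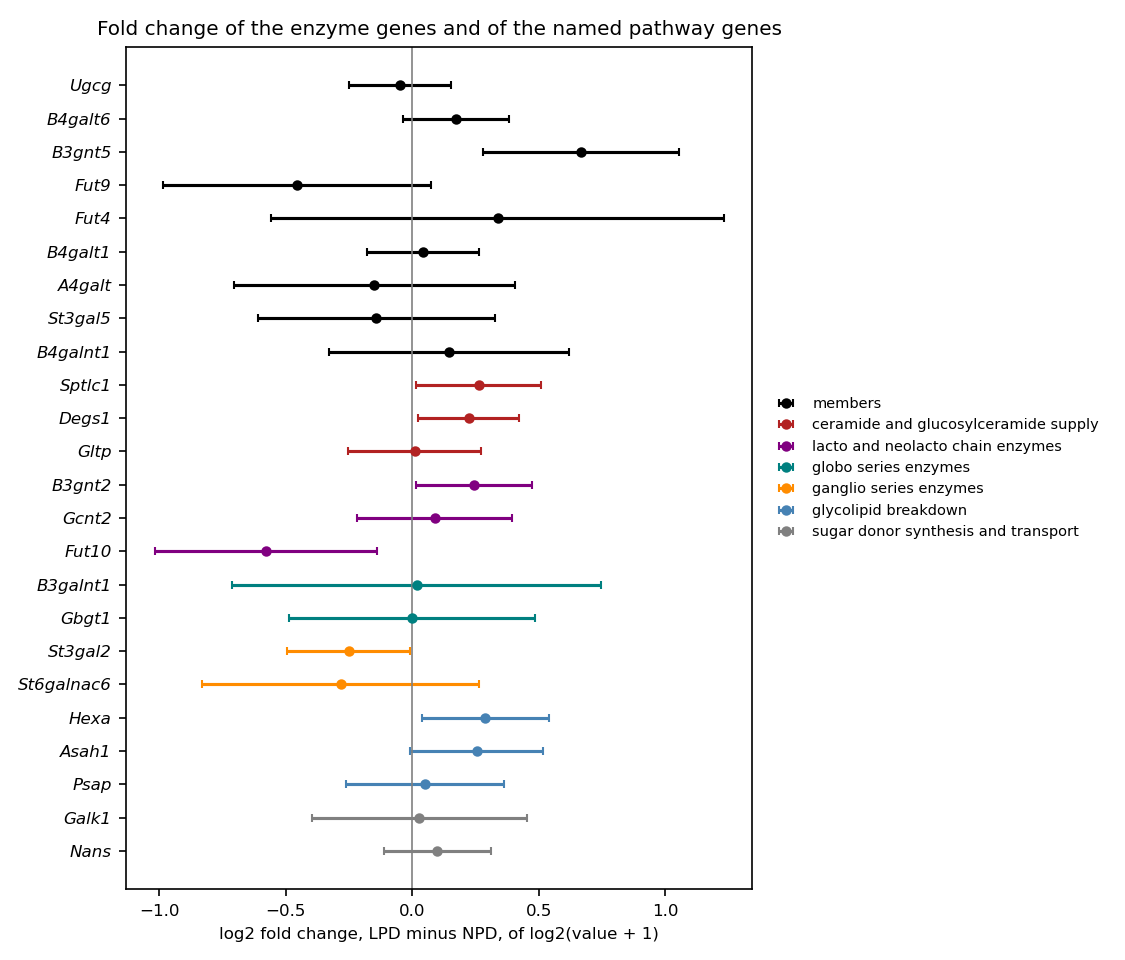
Log2 fold change, LPD over NPD, of the 9 tested enzymes (black) and of the named genes of the 6 pathway lists (a colour a list), with bars for the 95% interval of the limma fit on 5 lines a diet. Among the 9 enzymes the interval of B3gnt5, 0.28 to 1.05, lies above 0 and the other 8 include 0, and among the pathway genes 6 intervals exclude 0.

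In ceramide and glucosylceramide supply, 14 of 16 genes were tested and 2 had an unadjusted p under 0.05, both higher in LPD (2.84 percent over all genes), of which 1, Degs1, is left after rescaling to equal totals. Of the 14, 10 had a positive log2 fold change (median 0.01), and 6 of 14 after rescaling or quantile normalization. Sptlc1, a subunit of the serine palmitoyltransferase that starts sphingolipid synthesis, had 852, 827, 878, 924 and 612 in the LPD lines and 679, 655, 630, 727 and 693 in the NPD lines. LPD line 40 is below every NPD line and the other 4 LPD lines are above them all. Its log2 fold change was 0.26 (SE 0.11, exact permutation p = 0.0476, limma adjusted p = 0.982). Degs1, the desaturase that completes ceramide, had 1213, 1312, 1584, 1529 and 1413 in the LPD lines and 1285, 1259, 1201, 1119 and 1159 in the NPD lines. LPD lines 4, 6, 20 and 40 are above all NPD lines and LPD line 1 is among them, with a log2 fold change of 0.22 (SE 0.09, exact permutation p = 0.0317, limma adjusted p = 0.952). The glycolipid transfer protein Gltp had a log2 fold change of 0.01, which was -0.025 after rescaling and -0.013 after quantile normalization.

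Among the other lacto and neolacto chain enzymes, 12 of 17 were tested (B3galt2 is not in the table), 6 with a positive and 6 with a negative log2 fold change (4 and 8 after rescaling), median -0.01. B3gnt2, which extends N-acetyllactosamine chains, had 1165, 988, 1259, 1161 and 957 in the LPD lines and 859, 985, 926, 830 and 1063 in the NPD lines. LPD lines 1, 6 and 20 are above all NPD lines, and the log2 fold change was 0.24 (SE 0.11, exact permutation p = 0.0476, limma adjusted p = 0.980). Fut10, of the fucosyltransferase family, had 95.2, 73.1, 58.0, 56.6 and 87.3 in the LPD lines and 122, 106, 85.7, 114 and 121 in the NPD lines. LPD lines 4, 6 and 20 are below all NPD lines, and the log2 fold change was -0.58 (SE 0.20, exact permutation p = 0.0238, limma adjusted p = 0.839). The branching enzyme Gcnt2 had a log2 fold change of 0.09 (SE 0.14).

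The ganglioside list had 7 of 10 genes tested, 6 of them with a negative log2 fold change (median -0.25), also after rescaling and quantile normalization, and 5 of 7 without LPD line 4 and NPD line 15. St3gal2, a sialyltransferase of this branch, had 535, 493, 401, 442 and 426 in the LPD lines and 553, 564, 509, 619 and 486 in the NPD lines. LPD lines 6, 20 and 40 are below all NPD lines, and the log2 fold change was -0.25 (SE 0.11, exact permutation p = 0.0397, limma adjusted p = 0.982). St6galnac6 had -0.28 (SE 0.25), a value that leaving out LPD line 6 takes to -0.049 and leaving out LPD line 4 to -0.43. In the globo list 2 of 3 genes were tested, B3galnt1 at a log2 fold change of 0.02 (-0.016 after rescaling) and Gbgt1 at -0.00055, with a median of 0.01 and 0 at an unadjusted p under 0.05.

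For glycolipid breakdown, 15 of the 16 listed genes were tested (Neu4 is not in the table), 10 with a positive log2 fold change, also after rescaling and quantile normalization, and a median of 0.10. Hexa, the alpha subunit of the lysosomal hexosaminidase that degrades GM2, had 2295, 2055, 2513, 2413 and 3149 in the LPD lines and 2111, 2014, 2328, 1885 and 1773 in the NPD lines. LPD lines 6, 20 and 40 are above all NPD lines, and the log2 fold change was 0.29 (SE 0.12, exact permutation p = 0.0397, limma adjusted p = 0.952). The acid ceramidase Asah1 had 0.25 (SE 0.12, exact permutation p = 0.0873) and the saposin precursor Psap 0.05 (SE 0.14). All 19 genes of sugar donor synthesis and transport were tested, 14 with a positive log2 fold change (11 after rescaling, 12 after quantile normalization), a median of 0.06 and 0 at an unadjusted p under 0.05. In that list Galk1 had a log2 fold change of 0.03, which was -0.0069 after rescaling and -0.0059 after quantile normalization, and Nans had 0.10. Without LPD line 4 and NPD line 15 the log2 fold changes were 0.24 for Sptlc1, 0.26 for Degs1, 0.30 for B3gnt2, -0.59 for Fut10, -0.27 for St3gal2, 0.35 for Hexa and 0.32 for Asah1. In that fit Sptlc1 and St3gal2 lost their unadjusted p under 0.05 and Asah1 gained it.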

How the data were processed

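RNA of 10 ES cell lines, 5 a diet, was sequenced. The authors trimmed reads with cutadapt, quantified them with Salmon on GRCm38 transcripts and deposited a gene table whose values, read here as normalized signal, are named as normalized between lines with DESeq2. The step from transcripts to genes is not given in the sources used here, and whole counts could not be recovered, so no count model was used. Gene positions and lengths came from GENCODE M21. Genes with a mean of at least 10 were fitted as log2(value + 1) with limma 3.58.1 (lmFit, eBayes with a trend; R 4.3.3), without covariates, and p-values were adjusted by Benjamini-Hochberg over all 14354 genes with a threshold of 0.1. Single genes also had a two-sided exact permutation test over the 252 assignments of lines. Correlations used 100000 permutations, two-sided. With diet means removed, lines were still shuffled over both diets without allowance for the removed means, so those p-values can be too small. Summaries and plots used matplotlib 3.10.9, scipy 1.17.1, pandas 2.3.3 and numpy 2.4.6 under Python 3.11.15. The fit was tested on simulated data.

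The members and lists were chosen with earlier results of these data known. Named are all 10 enzymes, the genes of each of the 6 pathway lists at an unadjusted p under 0.05 and its 2 with the highest mean, the 5 genes nearest to B3gnt5 by r, Pou5f1, Nanog, Sox2, Ddx3y and the most abundant gene of each marker list. Outside that rule, and chosen after values were seen, are B4galt5 (shared role with B4galt6), Slc26a10 (exon overlap), Uap1 (joins a count of the text), Fgf5, T, Cdx2 and Elf5 (lowest of their marker lists), and genes named as absent from the table or at 0 in a line. Alternatives were pseudocounts of 0.1, 0.5 and 10, no filter, a mean of at least 100, equal totals, quantile normalization, no trend, robust eBayes, array weights, the exact Mann-Whitney test, depth as a covariate, each line left out, LPD line 4 and NPD line 15 left out, the median coding length and diet means removed. Chosen after seeing the data were the fit without LPD lines 4 and 40 and NPD line 15, the correlations with lines left out, the 45 relations with marker sums, and the log2 ratios between enzymes with either length.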

Additional observations from a re-analysis of the deposited data

Results flagged for a closer look

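In 94 groups of 5 lines, the highest or lowest line was compared with its nearest neighbour by Dixon's ratio (critical value 0.71), which chance passes in about 1 in 20 groups. In 7 a line stood apart. Asah1 was 2805 in LPD line 4, against 3685 to 4002 in the other LPD lines. In LPD line 6 the summed fibroblast markers were 3369 (352 to 687 in the other LPD lines) and the summed trophectoderm markers 10414 (3350 to 4929). The summed Y-linked genes were 701 in LPD line 4 (3706 to 4305 in the other LPD lines) and 152 in NPD line 15 (3776 to 3885 in the other NPD lines). Ddx3y alone was 174 in LPD line 4 (1161 to 1493) and 7.70 in NPD line 15 (1110 to 1364). No tested enzyme of the list of 10 had a line apart in either diet.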

How the results depend on the processing

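Genes called over the whole table went from 0 to 1 with array weights and to 9 without LPD lines 4 and 40 and NPD line 15 (chosen after seeing the data), and lay between 0 and 40 with single lines left out, 40 without LPD line 40. Genes at an unadjusted p under 0.05 ranged from 516 to 1021. Enzymes of the list at that level were 1 to 2 with single lines left out, 2 without LPD line 1 (Fut9 joins B3gnt5) or NPD line 8 (B4galt6 joins), and 1 in every other setting. The other pathway genes counted 2 by the exact Mann-Whitney test and 2 to 9 with single lines left out. B3gnt5 lay between 0.55 and 0.82 with single lines left out, and of the settings tried passed the adjusted threshold only without LPD line 40. Enzyme pairs at an adjusted p under 0.05 were 1 with diet means removed, where p-values can be too small, and 0 to 1 with single lines left out, 1 without NPD line 36. By median coding length 2 enzymes change rank, and the log2 ratio of B4galt6 to B4galt5 was -0.23 in LPD and -0.40 in NPD.

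Some log2 fold changes turned sign, that of Fut4 from 0.34 and the others from -0.15 to 0.05. Under the Mann-Whitney setting, which takes a difference of medians, Fut4 was -0.0072, St3gal5 0.0059 and Psap -0.091. With array weights A4galt was 0.032. Rescaled to equal totals, Gltp was -0.025, B3galnt1 -0.016 and Galk1 -0.0069. With quantile normalization Gltp was -0.013 and Galk1 -0.0059. With depth as a covariate Gltp was -0.011, B3galnt1 -0.22 and Galk1 -0.019. Gbgt1 was 0.00068 with a pseudocount of 10, and B3galnt1 -0.28 without LPD line 4 and NPD line 15. Single lines left out gave A4galt -0.30 to 0.026, St3gal5 -0.28 to 0.0060, Gltp -0.047 to 0.097, B3galnt1 -0.16 to 0.27, Gbgt1 -0.060 to 0.090, Psap -0.060 to 0.13 and Galk1 -0.12 to 0.16. The cause was not tested. With a mean of at least 100, Fut4, Fut10, B3galnt1 and Gbgt1 are not fitted. No paired analysis was possible because lines of the diets share no number. Fut4 and B3galt5 had the fewest read equivalents of the enzymes in every line.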
